A study of Rattus norvegicus with 8 samples.

Results

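The 7 genes described here, Pecam1, Cdh5, Emcn, Esam, Vwf, Egfl7 and Plvap, are markers by which endothelial cells, the lining of blood vessels, are usually recognised. They were selected by gene name, and they are 7 of the 26204 distinct gene names on the arrays. Together they were read by 8 probes, since Vwf had 2 and every other gene had 1. RNA from rat ovaries was measured on 8 one-colour Agilent arrays, 4 labelled control and 4 labelled PMSG. PMSG, pregnant mare serum gonadotropin, is a hormone preparation that drives follicle growth. Female rats aged 26 days received under the skin either 0.2 ml of albumin phosphate buffer alone, the control, or a dose of 50 IU PMSG in it, and ovaries were collected after 48 h, at 28 days of age. The labels name no strain, mutation or other agent for either group. They do not say whether arrays of a label came from separate animals, so p-values measure only the spread between these samples.

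Blood vessels of the ovary run through the stroma and the theca layer around each follicle, and the granulosa layer inside has no vessels of its own until ovulation. Endothelial cells hold together through junction proteins. Pecam1 (CD31) is an immunoglobulin-family adhesion molecule at endothelial contacts and is also carried by platelets and leukocytes. Cdh5 encodes VE-cadherin, the cadherin of endothelial adherens junctions, and Esam encodes an adhesion molecule of endothelial tight junctions that platelets also carry. Emcn encodes endomucin, a heavily glycosylated surface protein mostly of capillaries and veins, and Plvap encodes the protein that forms the diaphragms of fenestrae and caveolae. Vwf encodes von Willebrand factor, a blood-clotting protein that endothelial cells store and secrete and that megakaryocytes also make, and Egfl7 encodes a protein that endothelial cells secrete into the matrix. The last 2 products are therefore secreted rather than held as membrane proteins of the surface.

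The probes are 60 bases long, and their deposited sequences show what each measurement read. For Cdh5, Emcn and the dimmer Vwf probe the whole probe is printed, because these are the pair of genes whose call turned on 1 array and the probe that serves as the repeat measurement of Vwf. For Pecam1, Plvap and the brighter Vwf probe a stretch of 30 bases is printed around the hexamer AATAAA, a common polyadenylation signal, which is in capitals. For Esam, the member that was lower, the last 30 bases are printed.
Cdh5 probe: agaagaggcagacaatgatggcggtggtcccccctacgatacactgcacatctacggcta
Emcn probe: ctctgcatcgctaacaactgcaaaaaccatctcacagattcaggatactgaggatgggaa
Vwf dimmer probe: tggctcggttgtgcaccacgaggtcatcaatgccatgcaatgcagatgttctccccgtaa
Vwf brighter probe, stretch: tcctgggcccacAATAAAggccaagttctc
Pecam1 probe, stretch: ggagttgtattaAATAAAacggatttttac
Plvap probe, stretch: tcactggcacgtAATAAAtatcatgaaagt
Esam probe, stretch: aaggacacaaggaggaaacggaactgaggt

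AATAAA began at base 36 in each of the 3 probes that held it. These were 3 of the 8 member probes (37.5%), against 8.39% of all 30367 probes of the same length. Its reverse complement was in 0 member probes and in 2.86% of all probes. The match is a description of the probe letters, and no overlap with another motif was searched.

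Probe positions are on the rat build rn4, as the array files give them. The Pecam1 probe lies at chr10:96056220-96056278 on the minus strand, Cdh5 at chr19:779665-779724 on the minus strand and Esam at chr8:38783957-38784016 on the plus strand. Plvap lies at chr16:18668570-18668629 on the minus strand and Egfl7 at chr3:4769382-4769441 on the plus strand. The Emcn probe lies at chr2:234958254-234958549 on the plus strand, so its 60 bases span 296 bases of the genome. The brighter Vwf probe lies at chr4:161854702-161854761 and the dimmer one at chr4:161854554-161854613, both on the plus strand with 88 bases between them. Exon and UTR annotation of this build was not used here.

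The arrays stood on 1 slide, with 2 arrays of each label in each of its 2 rows. The 75th percentile of signal ranged from 769 to 1103, and 80.8% to 84.6% of probes were well above background. Correlations between arrays over all tested probes were 0.987 to 0.993 within control, 0.977 to 0.991 within PMSG and 0.96 to 0.972 between labels. The median SD of a tested probe was 0.159 log2 units within control and 0.269 within PMSG. Several hormone-responsive genes went against the direction generally known for gonadotropin, with Amh 3.03 log2 units higher and Cyp11a1 at -3.36, Star at -2.75 and Lhcgr at -1.93. Every direction given for a marker therefore rests on the labels alone, and the groups are called by their labels throughout.

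All 7 markers were well above background at every spot on all 8 arrays, and no spot of theirs was saturated or called an outlier. The named endothelial markers were thus measured in every ovary sample. Each value below is the log2 processed signal minus the 75th percentile of its array, so a value of 0 is as bright as that percentile. Levels of different probes cannot be ranked as amounts of RNA, because each probe has its own response. In whole ovary, fewer endothelial cells and less RNA per endothelial cell cannot be told apart.

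The markers did not move as 1 group. Esam was lower and Vwf was higher in arrays labelled PMSG, and the other 5 did not pass the limma test at an adjusted p of 0.05. That is 2 of 7 members called, 1 in each direction. Over all 25303 tested probes, 8658 were called, 34.2% in either direction, 16.6% lower and 17.6% higher. The members' count is thus near the background share. With median centring the split over all probes moved from 4206 lower and 4452 higher to 5534 lower and 2914 higher, while the members' calls were still Esam and Vwf. Without PMSG array 4 that split was 4400 lower and 6982 higher. The median difference of the 7 members was -0.10 log2 units here, -0.05 with quantile normalization and -0.265 with median centring. That of all tested probes was 0.11 here, 0.03 with quantile normalization and -0.05 with median centring.

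**Figure D1:**
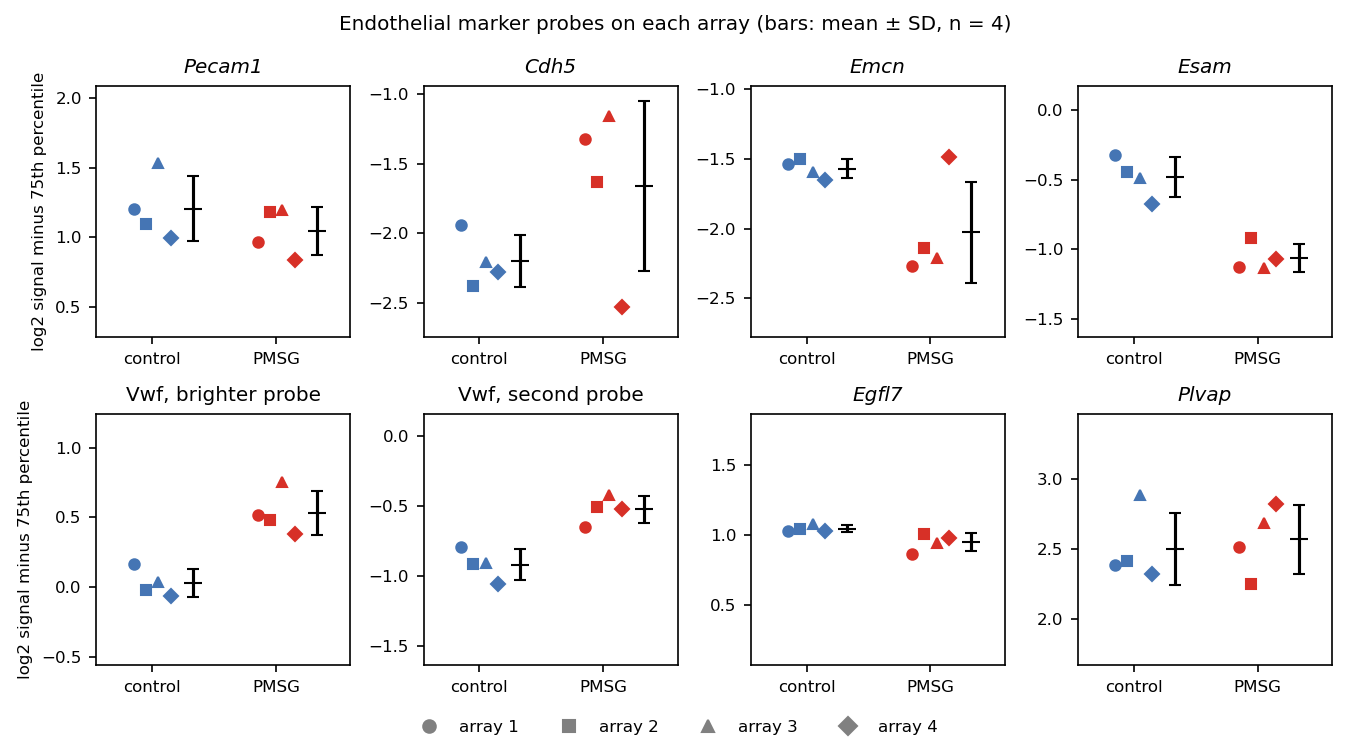
Log2 processed signal minus the 75th percentile of the array (vertical axis) for the 8 probes of the 7 endothelial markers, with 4 arrays labelled control and 4 labelled PMSG on the horizontal axis; points are single arrays, shaped by array number, and bars give the label mean ± SD (n = 4). Esam, both Vwf probes and Egfl7 separate the labels, Egfl7 by the narrowest gap. For Cdh5 and Emcn, 1 PMSG array (array 4) lies apart from the other 3.

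Among the junction molecules, Esam read -0.32, -0.45, -0.49 and -0.67 on control arrays 1 to 4. On PMSG arrays 1 to 4 it read -1.13, -0.92, -1.14 and -1.07. Every PMSG array lay below every control array. The difference was -0.58 log2 units (SE 0.11, 95% interval -0.83 to -0.33), a signal 0.669 times that of control (limma adjusted p = 0.00414). Within the slide rows Esam differed by -0.47 and -0.69. Its call was kept in 17 of 17 alternative analyses, at differences from -0.75 to -0.50.

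Cdh5, VE-cadherin, read -1.94, -2.38, -2.20 and -2.28 on control arrays and -1.32, -1.63, -1.16 and -2.53 on PMSG arrays. PMSG arrays 1 to 3 lay above all control arrays, and PMSG array 4 was the lowest of the 8. The difference was 0.54 log2 units (SE 0.28, 95% interval -0.11 to 1.19) and did not pass (limma adjusted p = 0.175). Without PMSG array 4 it was 0.83 (SE 0.15, limma adjusted p = 0.00552), so this array decided the call. Leaving it out also raised the number of called probes over the whole array, from 8658 to 11382. Both Cdh5 spots on that array were low, at -2.72 and -2.33. Cdh5 was also the marker whose paired spots lay farthest apart, with a median gap of 0.34 and a maximum of 0.67 log2 units between its 2 spots.

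Pecam1, the CD31 adhesion molecule, read 1.20, 1.10, 1.53 and 0.99 on control arrays. It read 0.96, 1.18, 1.19 and 0.84 on PMSG arrays, and the labels overlapped. The difference of -0.16 log2 units (SE 0.15, 95% interval -0.50 to 0.17) did not pass (limma adjusted p = 0.409). The rows of the slide differed in sign, at 0.14 in row 1 and -0.46 in row 2.

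Emcn, the sialomucin endomucin, read -1.53, -1.50, -1.60 and -1.65 on control arrays, a range narrower than that of most markers. On PMSG arrays it read -2.27, -2.14, -2.21 and -1.49. PMSG arrays 1 to 3 lay below every control array, and PMSG array 4 was the highest of all 8. The difference was -0.46 log2 units (SE 0.18, 95% interval -0.86 to -0.05), with a limma adjusted p of 0.078 that missed the threshold. Without PMSG array 4 it was -0.64 (SE 0.09, limma adjusted p = 0.0018). With limma array weights, which gave that array the lowest weight of the 8, Emcn stood at -0.58 and Cdh5 at 0.73, and both passed (limma adjusted p = 0.00662 and 0.0216).

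Plvap, the diaphragm protein of fenestrated vessels, read 2.39, 2.42, 2.89 and 2.32 on control arrays and 2.52, 2.25, 2.69 and 2.82 on PMSG arrays. The labels overlapped, and the highest value was that of control array 3. Its difference was 0.07 log2 units (SE 0.17, 95% interval -0.33 to 0.46; limma adjusted p = 0.778). The sign turned to -0.10 with median centring and to -0.02 without PMSG array 4. These data leave room for a difference of either sign within that interval.

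For Vwf, the brighter probe read 0.17, -0.02, 0.03 and -0.06 on control arrays and 0.52, 0.48, 0.75 and 0.38 on PMSG arrays. All PMSG arrays lay above all control arrays. The difference was 0.50 log2 units (SE 0.11, 95% interval 0.25 to 0.76), a signal 1.42 times that of control (limma adjusted p = 0.00907). Within the slide rows it was 0.66 and 0.35. The call was kept in 18 of 18 alternative analyses, at differences from 0.34 to 0.55.

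The second Vwf probe, whose target lies beside that of the first, read -0.79, -0.91, -0.91 and -1.06 on control arrays and -0.65, -0.51, -0.42 and -0.52 on PMSG arrays. The labels again did not overlap. Its difference was 0.40 log2 units (SE 0.10, limma adjusted p = 0.0159), in the direction of the brighter probe. This call was lost with median centring (0.23, limma adjusted p = 0.204) and without control array 4 (0.35, limma adjusted p = 0.0503). The 2 probes read the same RNA samples and are no independent replicates of each other.

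Egfl7, the secreted matrix-binding protein, read 1.03, 1.05, 1.08 and 1.03 on control arrays and 0.86, 1.01, 0.95 and 0.98 on PMSG arrays. It was the only member with 1 spot per array. Every PMSG array lay below every control array, yet the difference was small, at -0.10 log2 units (SE 0.08, 95% interval -0.28 to 0.09), and did not pass (limma adjusted p = 0.373). Counting Egfl7, the labels did not overlap for 3 of the 7 members, against 36.6% of all tested probes. At an unadjusted limma p under 0.05, 3 of the 7 members passed, Emcn in addition to Esam and Vwf, against 11475 of all 25303 tested probes. The members' count is again near the background share.

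**Figure D2:**
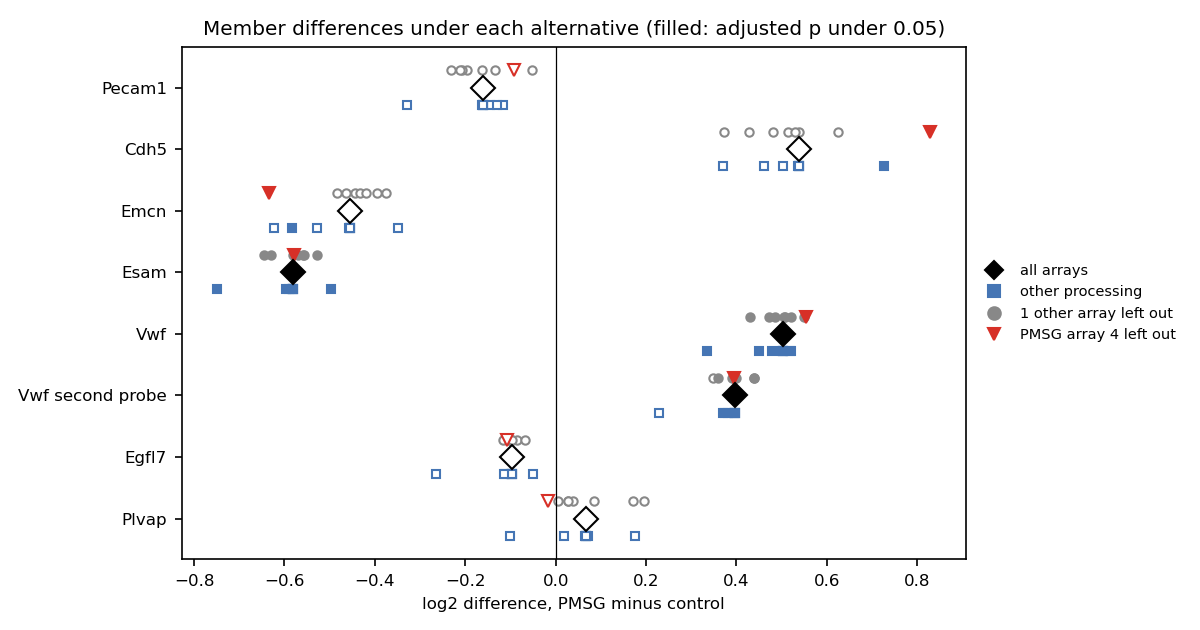
Log2 difference, PMSG minus control, of each member probe (horizontal axis) under the reported analysis and every alternative, with diamonds for all arrays, squares for other processing, circles for 1 array left out and red triangles for PMSG array 4 left out; filled marks are past a limma adjusted p of 0.05. Esam stays below 0 and Vwf above 0 throughout, whereas Cdh5 and Emcn pass only with array weights or without PMSG array 4.

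The spread between arrays of a label differed among the markers. PMSG array 4 lay 0.87 log2 units below its label mean for Cdh5 (-0.87) and 0.54 above it for Emcn, but at most 0.2525 from it for the other 5 (Plvap at 0.2525). For 3 of the 7 members this array was the PMSG array nearest the control mean, against 8 of 43 other endothelial genes and 30% of all tested probes. Control array 4 lay below its label mean for 7 of 7 members, by at most 0.21 (Pecam1 at -0.21). Control array 3 was high for both Pecam1 and Plvap, at 0.32 and 0.38 above the label mean. Neither array was high or low for every marker by a common amount.

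**Figure D3:**
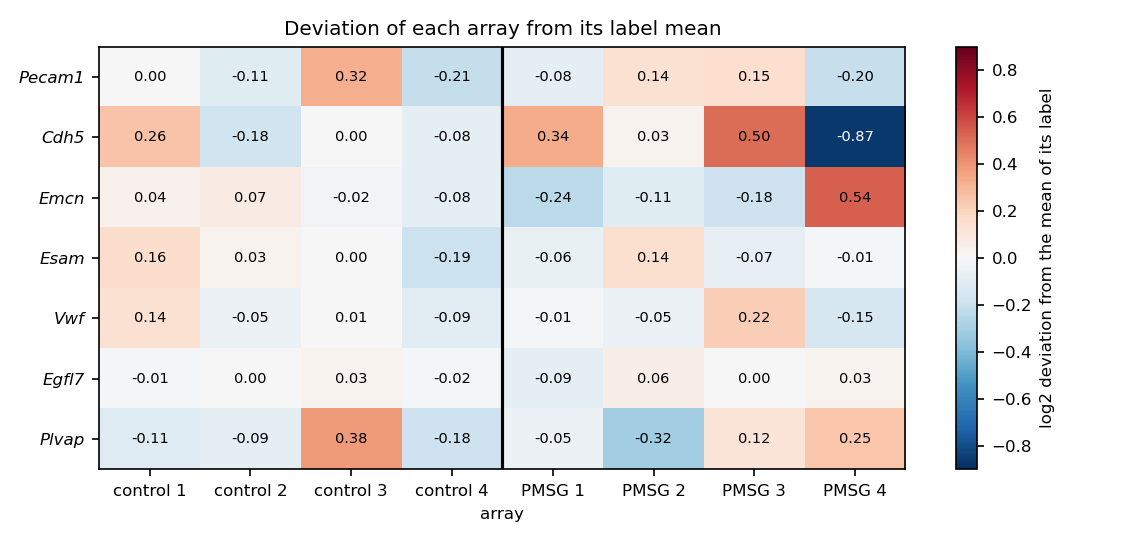
Deviation of each array (horizontal axis) from the mean of its own label, in log2 units, for the 7 markers (vertical axis); the colour and the printed value give the deviation and the black line parts control from PMSG arrays. The extreme cells are those of PMSG array 4, at -0.87 for Cdh5 and 0.54 for Emcn.

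Ratios of a pair of markers within an array do not depend on the scaling of that array. For the 2 called markers, the log2 ratio of Esam to Vwf, centred on its mean over the 8 arrays, was 0.56, 0.63, 0.53 and 0.44 on control arrays and -0.59, -0.34, -0.83 and -0.40 on PMSG arrays. This ratio joins the differences of the 2 genes already given and was described without a test. With each profile centred on its own mean, Pecam1 and Egfl7 were the most alike pair over the 8 arrays, at a root mean square difference of 0.17 log2 units, and Cdh5 and Emcn the least alike, at 0.78.

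Genes with the most similar profile to each marker were found among 21919 other gene names by the root mean square difference of centred values over the 8 arrays. For Esam these were Dusp11 and Plod3, at 0.055 and 0.055 log2 units, and for the brighter Vwf probe Med31 and Xpc, at 0.059 and 0.060. Cdh5 was closest to Nrxn3 (0.051) and to FQ228322 (0.061). Emcn had Cblb at 0.099, and Pecam1 had Sh2b2 and Cmklr1 at 0.086 and 0.098. Egfl7 had Stx4 and Las1l at 0.033 and 0.036, and Plvap had Capn1 and Amdhd2 at 0.079 and 0.080. The mean of the 7 centred markers was closest to the probe A_44_P713734, to Atp11b and to Tll1. A flat profile such as that of Egfl7 has many near neighbours, with 536 genes within 0.1 log2 units, while Emcn and Pecam1 had 2 each.

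The wider endothelial list of 48 genes, which holds none of the 7 markers, had 44 genes with a probe and 43 that were tested. Of these 19 passed, 14 lower and 5 higher, with a median difference of -0.08 log2 units. Over all tested probes the shares were 34.2% called and 16.6% lower, and the median was 0.11. With median centring the list had 18 lower and 3 higher, with a median of -0.25. No probe was matched for Ackr1, Ecscr, Mmrn2 and Ptprb, and Calcrl was not well above background on any array. The members of this list that were lower by the most were Sele, the endothelial selectin that captures leukocytes, at -1.99 (SE 0.18, limma adjusted p = 0.000226), and Nostrin, a regulator of endothelial nitric oxide synthase, at -1.48. They were followed by that synthase, Nos3, at -1.26 and by Tek, the angiopoietin receptor, at -1.20. The sizes depended on the background correction. With normexp Sele stood at -0.95 and Nostrin at -0.59, both still called (limma adjusted p = 0.000431 and 0.00676), and Tek lost its call at -0.20. Tek was well above background on 3 of 4 PMSG arrays.

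Higher in arrays labelled PMSG were Cldn5, the claudin of endothelial tight junctions, at 1.55 (SE 0.39, limma adjusted p = 0.0167), and the transcription factors Sox17 at 0.96 and Sox7 at 0.85. Gja5, a connexin of arterial endothelium, followed at 0.68. The Sox17 call was lost in 5 of 17 alternatives. Of the 9 genes of this list with more than 1 tested probe, 4 had probes that differed in call. For Clec14a and Tal1 the brighter probe did not pass (0.13 and 0.15) while a dimmer probe was lower (-0.51 and -0.32). For Selp the brighter probe did not pass (-0.03), while a dimmer one was called higher. This dimmer probe was well above background on 0 control and 4 PMSG arrays. It entered the test through the PMSG arrays alone, so its call is no support for a difference. Set against a floor for the control arrays, its mean PMSG signal was 1.64-fold higher, a value without an error. That floor was the lowest well-above-background signal of each control array, or the probe's own signal where higher. The dimmer probe read -6.59 on PMSG array 4, near its -6.87 on control array 4. The brighter and dimmer Selp probes overlap on the genome, and the brighter one stood at -0.03. The 1.64-fold value is therefore not taken as a difference in Selp. A second, much dimmer Sele probe did not pass, at -0.17.

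**Figure D4:**
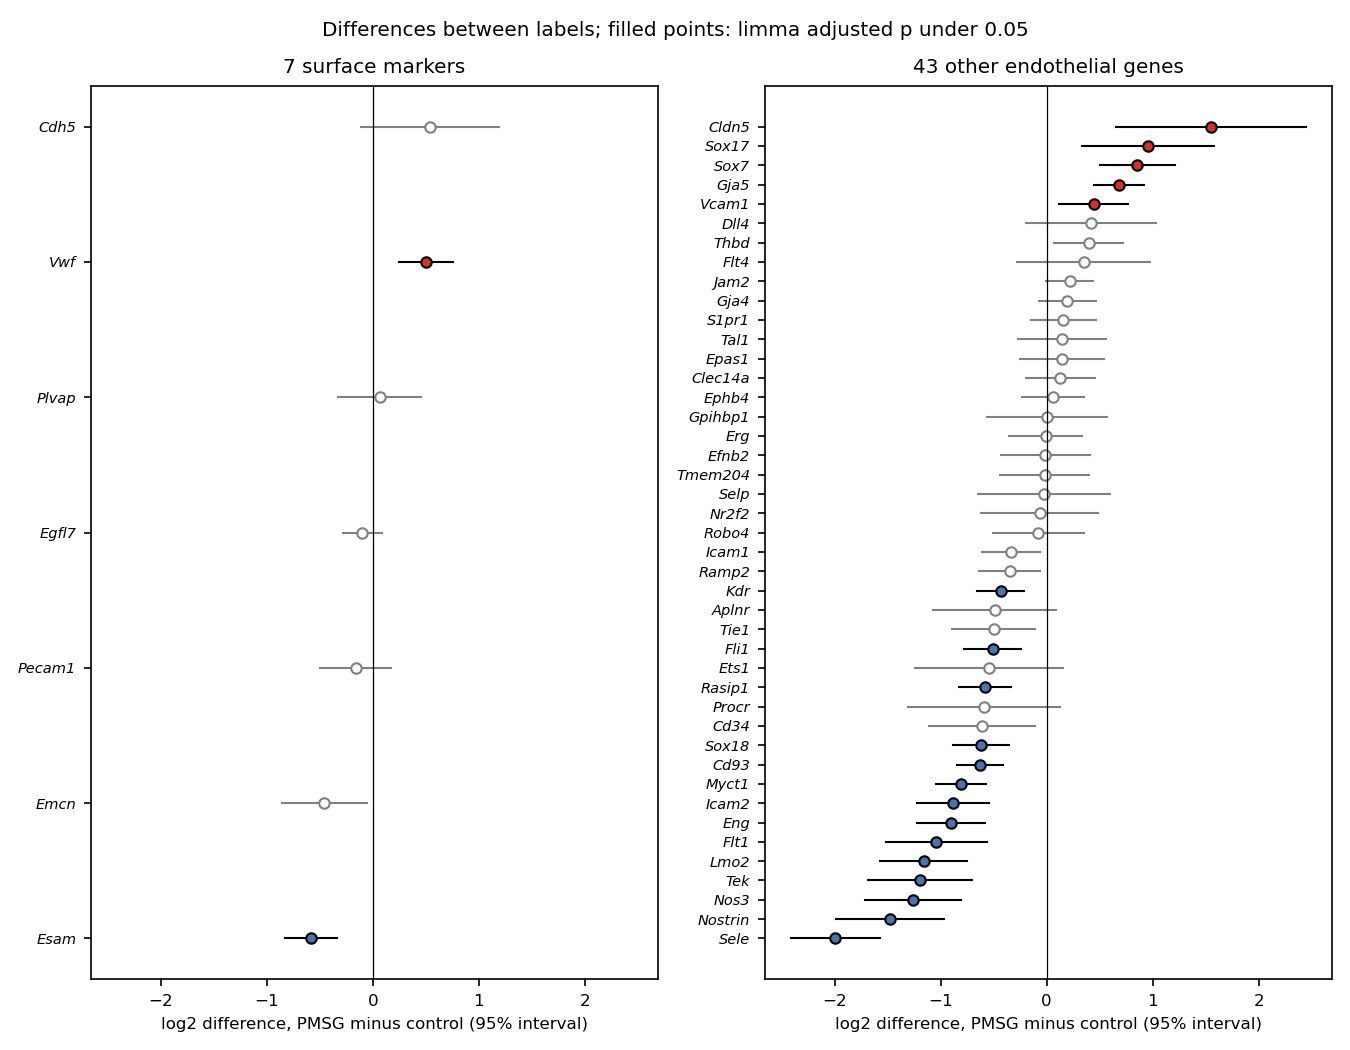
Log2 difference, PMSG minus control, with its 95% interval (horizontal axis) for the 7 markers (left) and the 43 tested genes of the wider endothelial list (right), with 4 arrays per label; filled points passed at a limma adjusted p of 0.05. Esam (-0.58) and Vwf (0.50) lie on opposite sides of 0, inside the span from Sele (-1.99) to Cldn5 (1.55).

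Some of the 7 markers are shared with other cells, so lists of those cells were read in the same fit. In that fit 34.2% of all tested probes were called. The platelet and megakaryocyte list, which is relevant to Vwf, Pecam1 and Esam, had 10 genes tested and 2 called. PMSG array 4 weighed on this count, which was 7 without it (2 lower and 5 higher). Itga2b, the platelet integrin subunit, was 1.30 higher. Its partner Itgb3 was lower at -0.86, a call lost with normexp, at -0.22. The summed signal of this list, in units of the 75th percentile of the array, ranged from 2.42 to 3.38 on control arrays and from 3.52 to 4.26 on PMSG arrays. Such a sum is weighted towards the brightest probes, and without Itga2b, a choice made after seeing the data, the ranges of 1.84 to 2.71 and 2.11 to 2.90 overlapped.

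Leukocyte markers had 11 genes tested and 4 called, all 4 higher, with Ptprc, the pan-leukocyte CD45, at 0.69. Over all tested probes 34.2% were called and 17.6% were higher. Among the genes that did not pass, Cd14 stood at -0.29, Cd79a at -0.19 and Itgb2 at -0.11. Csf1r stood at 0.29, Itgam at 0.14 and Lyz2 at 0.06, also without passing. Cd3e of T cells was well above background on 1 of 4 control and 3 of 4 PMSG arrays. Its difference of 1.19 did not pass and was 0.24 with normexp. Without control array 4, its highest control value, it passed (1.68, limma adjusted p = 0.0118). The probe entered the test mostly through PMSG arrays, so that pass is no support for a difference. Ms4a1 of B cells was not well above background on any array. The summed signal was 24.3 to 29.0 on control arrays and 29.5 to 34.3 on PMSG arrays. Of the 12 mural cell genes, which mark the pericytes and smooth muscle around vessels, 1 passed, Abcc9 at -0.69. The count was 3 with normexp or with only probes well above background on all 8 arrays. It was 2 without PMSG array 4, with quantile normalization, with the deposited values and with array weights. Myh11, a smooth muscle myosin, stood at 0.56 and did not pass, and the summed ranges of 52.5 to 79.3 and 51.8 to 81.6 overlapped. All 4 tested lymphatic endothelial genes passed at their brightest probe, 1 lower and 3 higher, with Ccl21 at 1.33 and Lyve1 at -1.09. With median centring 2 passed and with quantile normalization 3, and a second Pdpn probe did not pass (0.19). Prox1, the factor that defines lymphatic identity, was not well above background on any array, and the summed signal was 7.01 to 7.79 on control arrays and 10.9 to 14.1 on PMSG arrays. Its brightest probes, those of Pdpn and Ccl21, weigh most on this sum. Their means were 1.84 and 1.32 on control arrays and 2.51 and 2.65 on PMSG arrays.

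Red blood cell genes, 6 tested, had 1 called, Alas2 at -1.38, and Ahsp stood at -1.18 without passing. For Hbb the brighter probe did not pass (-0.13), while a dimmer one was lower (-0.965, limma adjusted p = 0.030). The dimmer probes of Hba-a2 and Ahsp did not pass, at -0.77 and -1.17. Ahsp passed with normexp and with median centring (limma adjusted p = 0.0498 and 0.0359), and stood at -0.70 without control array 3. Their summed signal was 190 to 239 on control arrays and 151 to 221 on PMSG arrays. The 7 endothelial markers themselves summed to 11.1 to 14.7 on control arrays and 11.5 to 13.5 on PMSG arrays, which overlap. How far any of these lists contributes to the values of Esam or Vwf was not tested.

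**Figure D5:**
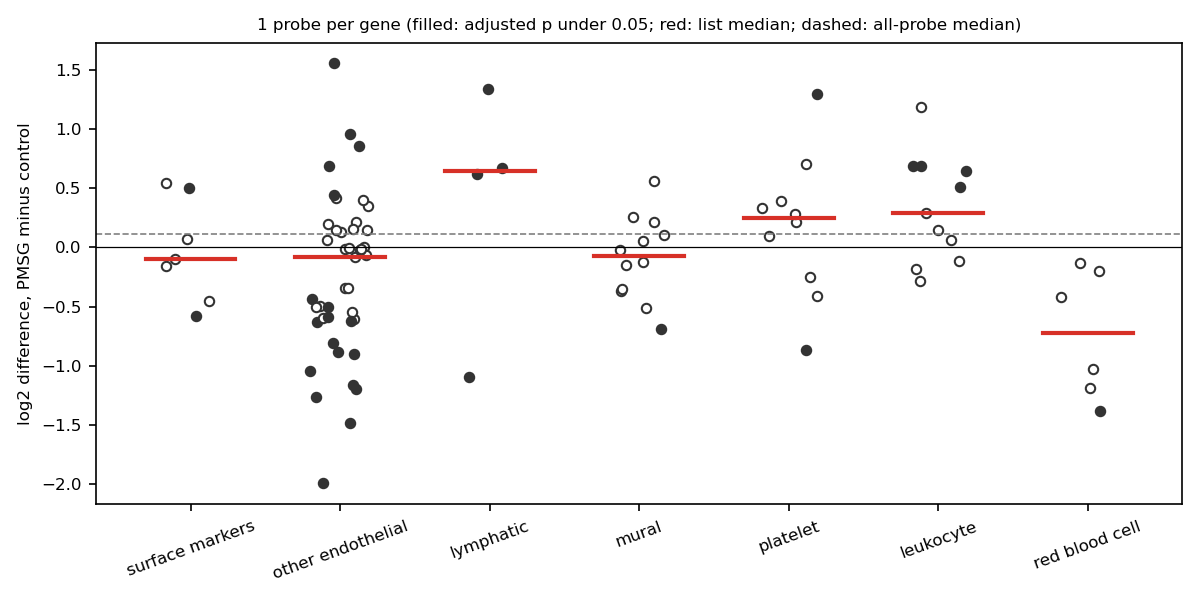
Log2 difference, PMSG minus control (vertical axis), for each tested gene of the 7 markers, the wider endothelial list and the lists of lymphatic, mural, platelet, leukocyte and red blood cell genes (horizontal axis), with 1 point per gene at its brightest probe, filled past a limma adjusted p of 0.05. Red bars are list medians and the dashed line is the median of all tested probes. The 7 markers are spread around a median of -0.10, beside medians of 0.64 for the 4 tested lymphatic genes and -0.72 for the 6 red blood cell genes.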

How the data were processed

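Ovary RNA was measured on 8 one-colour arrays, grouped by sample title. Agilent Feature Extraction 11.5.1.1 produced the deposited spot intensity, the background-subtracted processed signal, per the file headers. A value table from the authors holds log2 values, which by comparison with the scanner files are log2 signals minus the 75th percentile of each array, without probe centring; it served as an alternative. Outlier spots were left out, spots of a probe were averaged on the log2 scale, and 17 probes without a usable spot on some array were dropped. Probes well above background on at least 4 of the 8 arrays (25303) were tested with limma 3.58.1 in R 4.3.3, with Benjamini-Hochberg adjustment over all of them and a threshold of 0.05. The brightest probe stands for a gene. Names of genes come from the array files. The code was tested on simulated data. The number of arrays limits the precision.

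The members and gene lists were chosen with earlier results of these data known. Genes named beside the 7 markers are the 4 with the largest called difference in each direction of the wider endothelial list, the 2 with the largest absolute difference of each other list, 4 ovary genes, and the 2 nearest profiles of each marker, with 3 for their mean; 1 nearest profile is not reported here. Clec14a, Tal1, Selp, Pdpn, Ptprc, Hbb and Hba-a2 were named after their values were seen. So were the leukocyte genes that did not pass other than Cd3e, unmatched genes and genes below background. Alternatives were background correction, normalization, the deposited values, the filter on dim probes, probe averaging, replicate and slide row blocks, array weights and leaving out each array.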

Additional observations from a re-analysis of the deposited data

Results flagged for a closer look

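Of 60 groups of 4 arrays examined for 1 array standing apart, 3 were past the 95% critical value of Dixon's test, 0.829; chance alone gives about 1 in 20, or 3. Emcn on PMSG array 4, at -1.49 against -2.27 to -2.14 on the other 3 PMSG arrays, had a gap of 0.834 of the group's range. Plvap on control array 3, at 2.89 against 2.32 to 2.42, had a gap of 0.829, just past the critical value. Sele of the wider endothelial list stood apart on control array 2, at -2.50 against -3.28 to -3.17, with a gap of 0.869.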

How the results depend on the processing

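Esam and Vwf were called members in every alternative run. The count of called members was 2 except for 4 with array weights and a range of 2 to 4 when 1 array was left out, the 4 coming without PMSG array 4; Cdh5 and Emcn were the added genes both times. Plvap changed sign with median centring (-0.10) and without PMSG array 4 (-0.0178), and reached 0.19 when another array was left out. Called probes numbered 6552 to 11382 over the alternatives, against 8658, and called genes of the wider endothelial list 17 to 23, against 19. With the replicate number as a block, 7346 probes and 2 members were called, and the dimmer Vwf probe lost its call (limma adjusted p = 0.0576) while Ahsp gained one (0.0322); deviations of same-numbered arrays correlated at 0.0444, 0.0361, 0.183 and -0.0192, so the numbers were not taken to pair arrays. Platelet genes called were 6 with array weights, against 2. With the slide row as a block, 8124 probes were called. With 4 arrays per label, differences within the intervals given could not be resolved.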
